A study of Mus musculus with 4 samples.

Results

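The islands described here are all stretches of H3K36me3 enrichment on mouse chromosome 14 that start at or past position 70500001 (build mm9), up to the last wild-type island end at 125087600. They number 1014 of the 128124 islands in 2 deposited lists, 793 of 58326 in the wild type and 221 of 69798 in the mutant. Both libraries came from cultured FVB mouse myocytes, taken as myoblasts from skeletal muscle on postnatal day 4, grown for 5 to 10 passages and differentiated for 24 hours by withdrawal of growth factors. One was wild type, and the other lacked an enhancer that acts in muscle on H19 and Igf2, a locus on another chromosome (7). There was 1 H3K36me3 library of each genotype, so no test of genotype was possible, no p-value is given, and every difference holds for these 2 libraries alone. In such bulk libraries, fewer cells with the mark and less mark per cell cannot be told apart. Copy number of this stretch of chromosome 14 was not tested, because input reads were not analysed.

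Trimethylation of lysine 36 of histone H3 is written by SETD2, an enzyme that travels with elongating RNA polymerase II, so the mark lies over the bodies of transcribed genes and builds up away from their starts. Broad islands of it are therefore commonly read as transcribed gene bodies. Toward the end of chromosome 14 the GRCm38 gene table lists, in this order, Rb1, Itm2b, Med4, Sucla2, Lcp1, Tpt1, Tsc22d1, Elf1, Dach1, Mycbp2, Ednrb, Spry2, Mbnl2, Dock9, Zic5, Zic2, Pcca, Itgbl1 and Fgf14. Rb1 encodes the retinoblastoma protein, which holds back the cell cycle and is needed when myoblasts leave it. Tpt1 encodes a translationally controlled tumour protein that most cells make, Mbnl2 a splicing regulator, Zic2 a transcription factor of the developing nervous system and Fgf14 an intracellular fibroblast growth factor homologue of neurons. Gene positions and genome sequence of mm9 were not used here. No island is assigned to a gene, marker genes of muscle could not be looked up, and no sequence is printed.

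An island of one list was called kept when it shared 1 bp or more with an island of the other list, and lost when it shared none. Lost means that no island was called there, which is not the same as no reads. The segment was chosen by the ratio of mutant to wild-type island cover along the chromosome, which fell at its start, so the counts that follow describe that choice and support nothing beyond it. Of the 793 wild-type islands 176 were kept and 617 were lost, 77.8% lost, where 18.0% of all wild-type islands were lost. The kept share was 22.2% (95% interval 19.3% to 25.3%), against 78.3% on the rest of chromosome 14 and between 77.8% (chromosome 4) and 85.7% (chromosome 6) on the other 18 autosomes. The intervals are exact binomial (Clopper-Pearson) and cover counting error only, and neighbouring islands are not independent. In the other direction 202 of the 221 mutant islands, 91.4%, overlapped a wild-type island, and 19 did not, where 25.7% of all mutant islands did not. The mutant islands of the segment were thus nearly all placed on wild-type islands.

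Kept islands were mostly kept in part. Wild-type islands covered 3.65 Mb of the segment and mutant islands 0.621 Mb, and 0.535 Mb was covered in both, 14.7% of the wild-type cover. On the other autosomes 73.2% of wild-type cover was covered in the mutant. The 176 kept islands made up 1.21 Mb, of which 44.4% was covered in the mutant, and the 617 lost islands made up 2.44 Mb. Of the 793 wild-type islands 97 were covered in the mutant over 50% or more of their length and 16 over all of it.

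Around the start of the segment the kept cover fell unevenly, and single islands on the 2 sides did not divide cleanly. Of the wild-type cover 56.7% was kept in the last 1 Mb before the segment and 20.7% in its first 1 Mb. The ratio of mutant to wild-type cover, by which the segment was chosen, was 0.679 and 0.247. The 1 Mb steps starting at 67.5 and 68.5 Mb kept 67.8% and 36.3% of the cover. Those starting at 71.5 and 72.5 Mb kept 41.9% and 2.57%. The last 3 wild-type islands before the segment, at 70342601 to 70347400, 70357001 to 70359000 and 70404401 to 70407600, were all lost, with scores per window of 1.75, 3.22 and 3.29. The first 3 in it, at 70510201 to 70511600, 70517601 to 70527200 and 70528001 to 70529400, were all kept, with 13.0, 5.46 and 6.95. The first of these had the same start and end in both lists. It opened the longest series of kept neighbours in the segment, 7 islands from 70510201 to 70566600, of whose 30.4 kb of wild-type cover 18.4 kb was kept. In 1 Mb steps the kept share lay between 52.9% and 86.2% in the 10 Mb before the segment. It was 53.8% in the last of these steps, 36.2% in the first step of the segment, and between 3.90% and 50% over the first 10 steps, of which the highest rests on 4 islands.

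**Figure D1:**
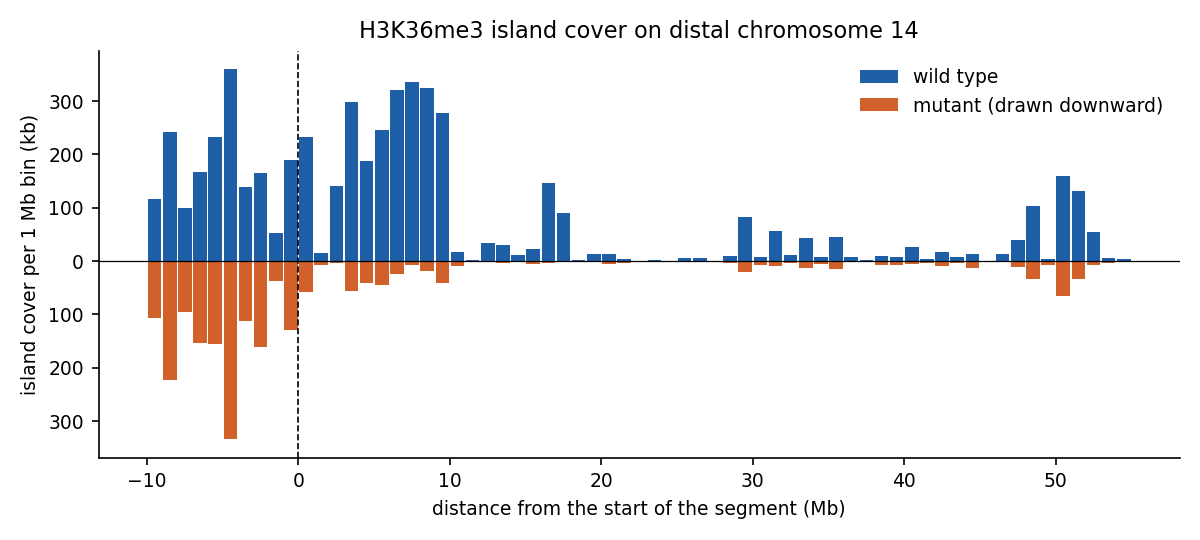
Length covered by islands (kb, vertical axis) in each 1 Mb bin, wild type upward and mutant downward, against distance from the start of the segment (Mb, dashed line at 0). Before the line the mutant bars reach between 0.664 and 0.981 of the wild-type ones. Past it the tallest wild-type bars lie within about 9.5 Mb, with a low one (14.8 kb) in the second bin. Beyond that stretch wild-type bars reach at most 160.2 kb, and mutant bars are short throughout the segment.

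Most wild-type islands of the segment lay in its first 9.5 Mb, and a smaller share of them was kept there than over the remaining length taken as a whole. Before 80 Mb 464 islands covered 24.8% of the sequence in the wild type, and 81 of them, 17.5% (14.1% to 21.2%), were kept. Past 80 Mb 329 islands were spread over the remaining length, and 95 of them, 28.9% (24.0% to 34.1%), were kept. Of the wild-type cover 11.8% was kept before 80 Mb and 19.97% past it. The mutant had 98 and 123 islands in the same stretches, of which 2 and 17 lay outside wild-type islands. Mutant islands were thus slightly more numerous in the longer, sparse stretch, although the wild type had more islands in the dense one.

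In steps of 5 Mb the kept share changed several-fold along the segment. It was 23.7% (33 of 139) from the start of the segment to 75 Mb and 14.8% (48 of 325) from 75 to 80 Mb, the step with the most islands. It was lowest from 85 to 90 Mb, with 6 of 73 islands kept, 8.22% (3.08% to 17.0%). It was highest from 110 to 115 Mb, with 13 of 18, 72.2% (46.5% to 90.3%), where few islands lay and their median score per window was 2.50. From 115 to 120 Mb 16 of 39 were kept, and from 120 Mb to the end 28 of 77.

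Lost islands followed each other in long series, which the low kept share gives in part by itself. The segment held 20 series of 10 or more neighbouring wild-type islands that were all lost, with 351 islands in them, and the rest of the autosomes held 12 such series in all. The longest had 35 islands from 76915601 to 77425200, with 157.4 kb of wild-type cover. The next had 28 islands from 77867001 to 78183800 and 26 islands from 72990801 to 73515800. Outside the segment the longest had 19 islands, on chromosome 4 from 75489601 to 76176200. The 176 kept islands fell into 116 series, of which 77 were a single island, with a median spacing of 49.2 kb. The widest space between kept islands ran from 91087800 to 99458601. After the 7 islands at the start of the segment, the longest kept series had 5 islands from 120709001 to 120761000, with 28 kb of cover of which 12 kb was kept.

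To ask which larger marked regions kept the mark, wild-type islands were joined over spaces of up to 20 kb into 234 blocks, and a block was counted as kept when at least 10% of its wild-type cover was covered in the mutant. By that rule 71 blocks, 30.3% (24.5% to 36.7%), were kept, against 73.6% on the rest of chromosome 14 and 80.4% on the other autosomes. In 148 blocks nothing was kept, and in 28 blocks 50% or more. All 28 held under 20 kb of wild-type cover. The 19 blocks with 50 kb or more of wild-type cover kept between 0% and 40.1%, with a median of 9.65%. On the other autosomes the median of such blocks was 81.4%, and 5 of 1672 kept under 25%, where 17 of 19 did in the segment. No large block of the segment had most of its wild-type cover under mutant islands.

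The blocks with the most wild-type cover were all before 80 Mb. The block from 79252201 to 79706600 held 44 wild-type islands with 242.4 kb of cover, of which 23.4 kb (9.65%) was kept in 8 mutant islands. The block from 73544401 to 73867800 held 33 islands and 208 kb, of which 40.4 kb (19.4%) was kept, and the block from 75090201 to 75370400 held 22 islands and 165.6 kb, of which 40.6 kb (24.5%) was kept. From 76100401 to 76350400, 33.4 kb of 141 kb was kept, and from 79733001 to 79913800, 13 kb of 109.2 kb. These blocks thus kept a minor part each, in pieces.

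Large blocks also differed from one another. The block at the start of the segment, 70510201 to 70670400, kept 28.2 kb of 70.4 kb, the highest share among the 19. The block from 120688001 to 120892800, near the other end, kept 32.8 kb of 97.6 kb (33.6%) in 13 mutant islands. In contrast 3 blocks had no mutant island at all. They lay from 77027001 to 77174200 (72.8 kb of wild-type cover), from 78041601 to 78183800 (63.8 kb) and from 78966801 to 79119000 (83 kb). Per covered window, the deposited wild-type score of these 3 was 4.14, 3.28 and 3.22. The 9 large blocks that were kept had between 3.27 and 7.61 with a median of 5.07, and the 10 others between 3.22 and 4.61 with a median of 3.93. The ranges overlapped, and both blocks past 120 Mb were kept at low values, 3.89 and 3.27.

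**Figure D2:**
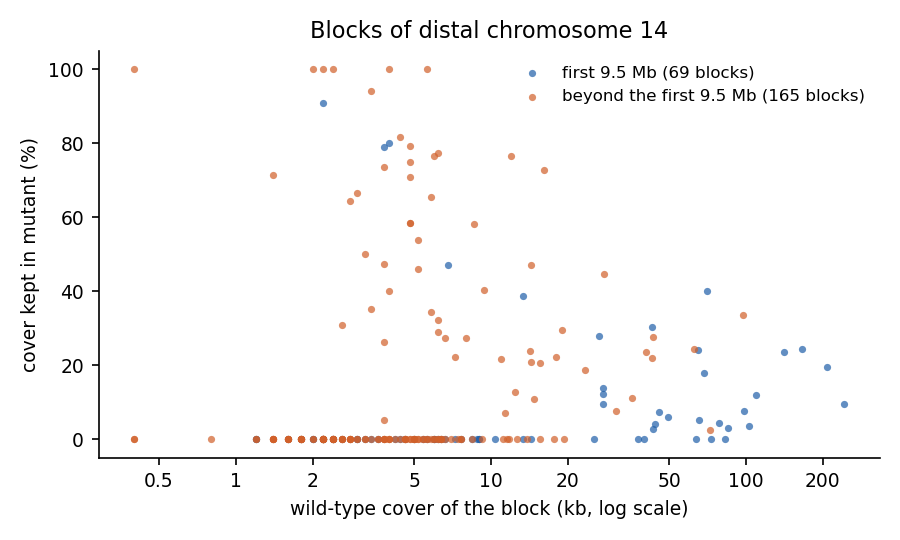
Share of each block's wild-type cover that was covered in the mutant (%, vertical axis) against the block's wild-type cover (kb, log axis); each point is 1 of 234 blocks, coloured by position. Blocks of 50 kb or more reach at most 40.1%, and only blocks under 20 kb reach 50% or more.

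Kept wild-type islands had a higher score per window than lost ones. The island score is the authors', a sum over windows of 200 bp that grows with read depth and with length, so it was divided by the number of windows and compared within a list only. In the segment the median score per window of wild-type islands was 4.26 for kept and 3.30 for lost islands, a ratio of 1.29, and on the other autosomes 3.84 and 2.76, a ratio of 1.39. At the wild-type depth of 2.82 reads per window, as solved from the scores, 4.26 corresponds to 7.17 reads in each window and 3.30 to 6.14, if all windows of an island scored alike. This conversion takes no account of gaps inside islands. The median of lost islands in the segment lay above that on each of the other autosomes, which ran from 2.63 to 2.86. With kept defined as 50% of the length covered, the ratio in the segment was 1.26.

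Kept islands were longer by the 1 bp rule, and in the segment only slightly so by a rule that asks for a share of the island. By 1 bp the median wild-type length was 5200 bp for kept and 3400 bp for lost islands, a ratio of 1.53, and on the other autosomes 4200 and 3000 bp. When 50% of the island had to be covered, the medians in the segment were 3800 and 3600 bp, a ratio of 1.06, and on the other autosomes 4200 and 3400 bp. A longer island has more bases that can touch a mutant island, so the 1 bp rule favours long ones by construction. The 50% rule can go against long ones, because mutant islands of the segment had a median length of 2400 bp. Of its 31 kept islands of 10 kb or more, 7 were covered over 50% or more of their length. On the other autosomes 96.1% of such islands were. Neither ratio is thus free of the rule used.

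Score per window set kept and lost islands apart before 80 Mb more than past it, as medians. Before 80 Mb the medians were 5.91 for kept and 3.51 for lost islands, and past it 3.37 and 2.996. By the 50% rule they were 6.31 and 3.64 before, and 3.52 and 3.01 past. Within quartile groups of score per window, with limits from all autosomal wild-type islands, 5.83%, 2.65%, 13.3% and 40.6% were kept before 80 Mb, from the lowest to the highest quartile group. Past 80 Mb the shares were 19.4%, 37.6%, 30.0% and 35.7%, the last of 42 islands. In the dense first stretch it was chiefly islands of the highest quartile group that were kept. Past 80 Mb the upper 3 quartile groups had like shares within their intervals. Score per window is tied to length, because the lowest wild-type score was 30.3 and short islands reach it only with high values. In the whole segment, islands above the autosomal median score per window were kept in 16.3% when no longer than the autosomal median length. Longer ones were kept in 47.8%. Whether length evens out the shares past 80 Mb was not tested.

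**Figure D3:**
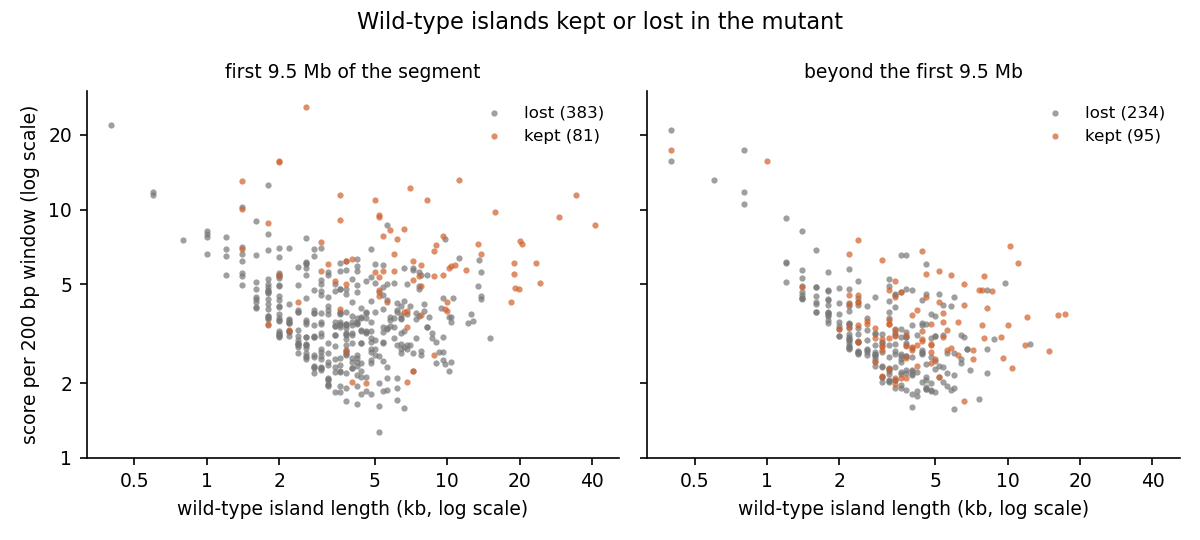
Score per 200 bp window (vertical, log axis) against length (kb, log axis) of the wild-type islands, kept in orange and lost in grey, before 80 Mb on the left (81 kept, 383 lost) and past it on the right (95 and 234). Kept islands lie high and to the right on the left side and among the lost ones on the right side.

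At like length or like score per window, fewer islands were kept in the segment than elsewhere. Of wild-type islands over 6200 bp, the longest quartile group, 66 of 147 were kept in the segment, 44.9% (36.7% to 53.3%), against 97.4% on the rest of chromosome 14 and 97.3% on the other autosomes. Of the shortest quartile group 11.8% were kept in the segment and 75.7% on the other autosomes. Of the quartile group with the highest score per window 39.5% (32.4% to 46.9%) were kept, against 94.4%, and of the lowest 13.2% against 65.3%. Islands that were both longer than the autosomal median and above it in score per window were kept in 75 of 157 cases, 47.8%, against 98.9%. In all 8 quartile groups of length and score per window the segment had a lower kept share than the other regions. This describes the choice of the segment by its low mutant cover and is no test of it. The wild-type islands of the segment had a median length of 3800 bp, the same as the median over all other autosomes. Their median score per window was 3.46, near the 3.42 of the rest of chromosome 14. Both lay just below the range of medians of the other single autosomes, 3.49 to 4.06. Past 80 Mb the medians were 3400 bp and 3.07.

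**Figure D4:**
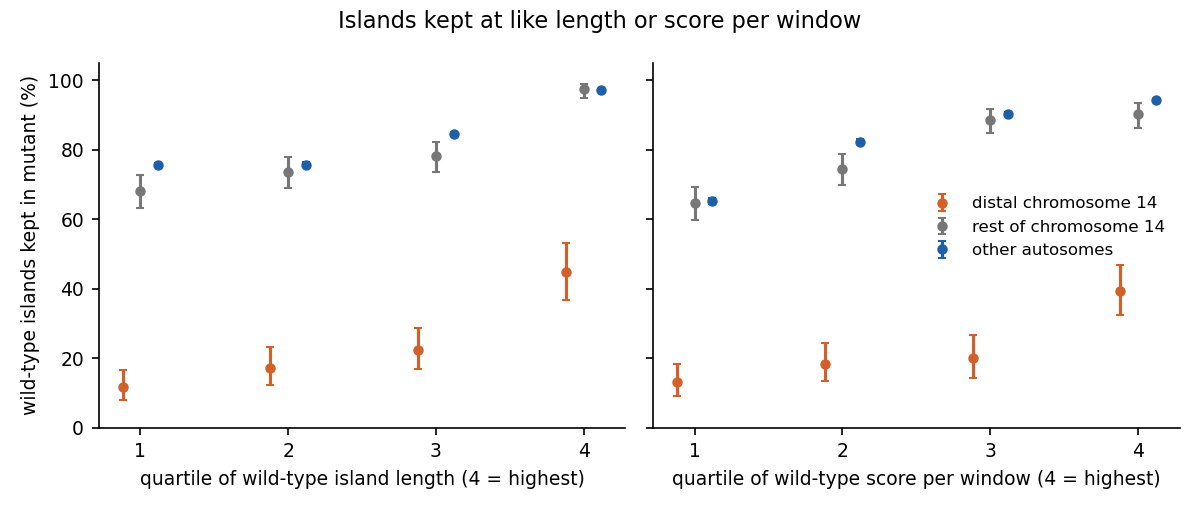
Share of wild-type islands kept in the mutant (%, vertical axis) by quartile group of island length (left) and of score per window (right), for the segment, the rest of chromosome 14 and the other autosomes; bars are exact binomial 95% intervals. In every quartile group the segment lies lowest, from 11.8% to 44.9% by length and from 13.2% to 39.5% by score per window.

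The 10 islands with the highest wild-type scores were all kept, each over a part of its length. Of the length of the top 10 by score 36.5% was covered in the mutant, and 3 of the 10 were covered over 50% or more. Of the top 100 by score 64 were kept and 36 lost. Islands of like score elsewhere were not set beside these. The score grows with length and the 1 bp rule favours long islands. On the other autosomes 99.9% of islands of 20 kb or more were kept. The highest, from 75182801 to 75217000, was 34.2 kb long with a wild-type score of 1959 and 11.5 per window, and 20.4 kb of it (59.6%) was covered by 5 mutant islands, the longest of 6.2 kb. The second, from 73742401 to 73783600, was the longest of the segment at 41.2 kb, with a score of 1790 and 8.69 per window, and 16.6 kb (40.3%) was covered. Over it lay the longest mutant island of the segment, 73754601 to 73769400, of 14.8 kb, which scored 250.3 in the mutant list, or 3.38 per window. The third, from 73954801 to 73984000 (29.2 kb, 9.29 per window), was covered over 11.6 kb in 4 pieces. The next wild-type island, from 73984801 to 73998400 (13.6 kb, 6.24 per window), was lost, and with 424.6 it had the highest score of all lost islands of the segment.

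The 5 longest lost islands were of a size at which islands elsewhere were nearly always kept. They lay from 79425801 to 79440800 (15 kb, 3.03 per window), 79050201 to 79064000 (13.8 kb, 4.48), 79346801 to 79360600 (13.8 kb, 5.62) and 79811401 to 79825200 (13.8 kb, 4.36), with the 13.6 kb island just given as the fifth. Of the 41 wild-type islands of 10 to 20 kb in the segment 17 were lost, whereas 32 of 4871 were lost on the other autosomes. All 7 islands of 20 kb or more were kept in the segment, over 35.7% of their length, and on the other autosomes such islands were covered over 90.1%.

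The 5 longest wild-type islands with 50% or more of their length covered lay on both sides of 80 Mb. Besides the 34.2 kb island they lay from 99699801 to 99716000 (16.2 kb, 72.8% covered), 76522201 to 76538000 (15.8 kb, 63.3%), 121338001 to 121350000 (12 kb, 76.7%) and 75166401 to 75177600 (11.2 kb, 51.8%). Those past 80 Mb had wild-type scores per window of 3.75 and 3.68, and those before it 11.5, 9.82 and 13.2. The island at 121338001 was covered by 1 mutant island of 10.8 kb, from 121340801 to 121351600, the second longest mutant island of the segment.

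Mutant islands of the segment were short and of low score within the mutant list. Their median length was 2400 bp, against 3000 bp on the other autosomes of the same list, 2 of 221 reached 10 kb and none 20 kb. Their median score per window was 3.02, against 3.79 on the rest of chromosome 14 and 3.96 on the other autosomes, where single autosomes had medians from 3.86 to 4.42. Of the 221 islands 170, 76.9%, scored below the autosomal median score of the mutant list, 52.2, and 11 reached its highest quartile group. Islands with a wild-type counterpart had a median score per window of 3.05 in the segment and 4.18 on the other autosomes. The mutant list reaches down to a score of 22.6, below the lowest wild-type score of 30.3, and 82 of the 221 islands (37.1%) lay under that wild-type limit, against 20.2% on the other autosomes. With such islands left out, an alternative added after seeing the data, 15.4% of wild-type islands were kept in the segment, and 76.1% on the other autosomes.

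Relative to its own list, the mutant scored low at the kept places, and the wild type high before 80 Mb only. Over the whole segment, kept wild-type islands of the segment had a median score per window of 4.26, above the 3.84 of kept islands on the other autosomes of the wild-type list, while the mutant islands on them had 3.05, below 4.18. The wild-type median was 5.91 for the 81 kept islands before 80 Mb, and for the 95 past it 3.37, below 3.84. The mutant islands with a counterpart had 3.19 before and 2.95 past 80 Mb. Among kept islands of the highest wild-type quartile group, the longest mutant island over each had a median of 3.44 per window (quartiles 2.57 and 4.62) in the segment, and 5.78 (4.52 and 7.48) on the other autosomes. In the lowest quartile group the medians were 2.49 and 3.19. From the lowest to the highest wild-type quartile group the mutant medians differed by less than 1 in the segment (2.49, 2.84, 3.04 and 3.44) and by more than 2 on the other autosomes (3.19, 3.68, 4.31 and 5.78). These medians cover only places where a mutant island was called, and no mutant island scored under 22.6. Mutant islands of the segment lay nearer that limit, with a median score of 34.5 against 52.4 on the other autosomes. How far the limit narrows the medians was not tested. The median share of the island that was covered was 55.2% in the highest quartile group in the segment and 96.3% on the other autosomes. The mutant library was the deeper one by the solved depth, 3.11 against 2.82 reads per window.

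**Figure D5:**
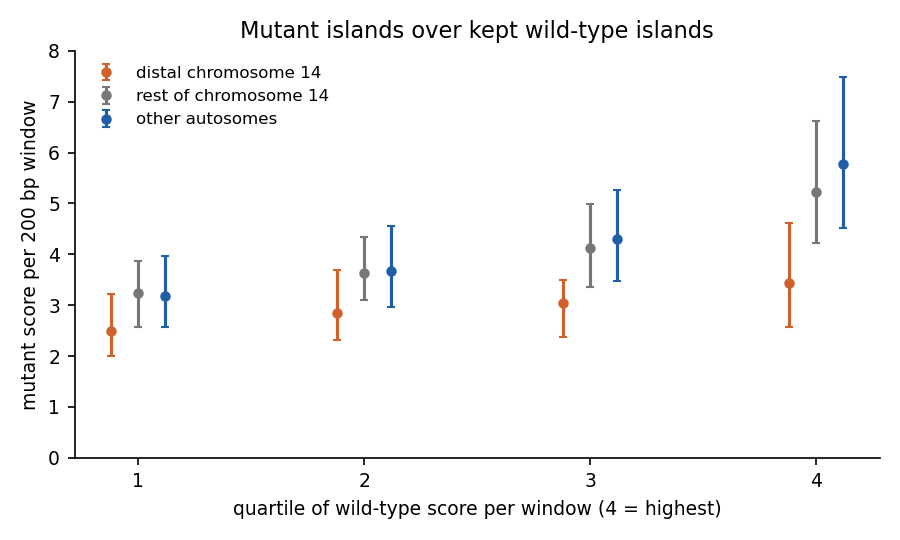
Score per 200 bp window of the longest mutant island over each kept wild-type island (vertical axis) by quartile group of the wild-type score per window, for the segment, the rest of chromosome 14 and the other autosomes; points are medians and bars run from the lower to the upper quartile of islands. The segment has the lowest median in each quartile group, and the distance to the other autosomes is widest in the highest quartile group, 3.44 against 5.78. Wild-type islands with no mutant island over them are not included.

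The mutant islands with the highest scores per window, among those of at least 2 kb, lay in large blocks, 4 of the 5 in blocks named above. The first, from 120788601 to 120791400, scored 7.21 per window and lay inside a 17.4 kb wild-type island that scored 3.78 per window. The others started at 70592601 (6.65), 73981801 (6.35), 75200801 (5.88) and 120745801 (5.71), and each lay on a wild-type island over 80% to 100% of its length. The third longest mutant island, from 76246601 to 76254400, was 7.8 kb long, and the next were 7.4 kb from 76132601 to 76140000 and 7.2 kb from 120819201 to 120826400. The last of these lay wholly within a 10.2 kb wild-type island.

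Within partly kept islands, the inner stretches were covered more than the ends, as elsewhere. A mutant island that fits inside a wild-type island can cover the inner stretches from more positions than the ends. This shape is thus given in part by construction, and a preference for the middle was not tested. For 92 kept but not fully covered wild-type islands of 5 kb or more, cut into 5 equal stretches, the outermost 2 were covered to 30.4% and the inner 3 to 42.5%. On the other autosomes the values were 71.9% and 83.1%. Of 31 kept islands of 10 kb or more in the segment, 9 (29.0%) had 2 or more mutant islands over them, and on the other autosomes 55.4% did. The median covered share of these long islands was 26.0% in the segment and 90.7% elsewhere.

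Mutant islands with no wild-type overlap were few and short. The longest of the 19, from 120682001 to 120687000, was 5 kb with a score of 59.9, and it lay just before the wild-type block at 120688001. The next ones were 3.4 kb from 70855001 to 70858400, 3 kb from 103481401 to 103484400 and 2.8 kb each from 92432601 to 92435400 and from 120355801 to 120358600. Their median score per window was 2.71, against 3.37 for mutant islands without a counterpart on the other autosomes. Of the 19, 12 scored below the lowest wild-type score, so at the wild-type limit 7 would remain.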

How the data were processed

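Chromatin immunoprecipitation and sequencing of H3K36me3 was analysed in 2 libraries, 1 wild type and 1 mutant; the 2 input libraries of the series were not analysed here. The authors deposited 1 list of islands per library, giving each island's place and score. Reads were aligned to mm9 with Bowtie 1.0.0 and islands called with SICER 1.1, as far as the submitters' processing notes name them; per the file names the window was 200 bp and the gap 600 bp. Use of input and removal of duplicate reads are not given in the sources used here. A deposited score adds up, over the scored windows of an island, how improbable (as a negative natural log) the read count is under a Poisson model. Windows in gaps inside an island count toward its length, so score per window also depends on the share of gaps. Reads per window (2.82 and 3.11) were solved from 8 and 14 islands of 1 window. Input reads or copy number of the segment were not analysed here.

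Overlaps were counted on 200 bp windows (scipy 1.17.1, pandas 2.3.3, numpy 2.4.6, Python 3.11.15) and tested on simulated removals of islands. Coordinates are counted from 1. With 1 library per genotype there are no replicates and no test. Regions were named by rule: the 5 longest islands lost, 50% covered, in the mutant, or in the mutant alone, the 5 densest mutant islands of at least 2 kb, the 5 blocks with the most wild-type or shared cover, and the 3 islands on each side of the segment's start. Other islands, blocks and series named were added after their values were seen. Members, lists and alternatives were chosen with earlier results of these data known. The gene lists of the plan need an mm9 annotation and were not used.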

Additional observations from a re-analysis of the deposited data

How the results depend on the processing

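The low share of kept islands in the segment held in each setting run, and its size moved. Against 22.2%, it was 12.2% with 50% of the island covered, 12.3% when only the upper 50% by score of either list was used, 18.0% without islands under 2 kb, 26.6% when islands up to 2 kb apart were joined, 17.5% before 80 Mb, 28.9% past it and 15.4% at the lowest wild-type score. In the settings that altered the lists, the other autosomes kept 76.1% to 83.5%. Mutant islands had a counterpart in 98.0% before 80 Mb, 86.2% past it and 94.96% at the lowest wild-type score, against 91.4%. The upper 50% by score kept 8.95% of the cover, against 14.7%. The mutant to wild-type cover ratio of 0.170 became 0.101 there and 0.256 past 80 Mb. Blocks were kept in 17.5% (upper 50%), 23.2% (before 80 Mb), 38.7% (joined over 50 kb), 36.8% (any overlap), 11.97% (50% of cover) and 20.9% (lowest wild-type score), against 30.3%. In the longest quartile group, at 44.9%, the share was 12.2% (50% covered), 22.6% (upper 50%), 62.2% (past 80 Mb) and 31.3% (lowest wild-type score). In the quartile group with the highest score per window, at 39.5%, it was 23.2% (50% covered) and 24.2% (upper 50%). The cause of these moves was not tested. The other 49 values stayed near the main one, within its 95% interval for shares and within 1.5 times for the rest; among them the ratio of median lengths of kept to lost islands went from 1.53 to 1.06 with 50% of the island covered. No paired analysis was possible because there is 1 library per genotype, and no replicate could be left out. The effect of depth on weak islands was not tested. The lists have different lowest scores, and 82 of 221 mutant islands scored under the lowest wild-type score.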
